A study of Mus musculus with 24 samples.

Results

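Gastrocnemius muscle of tumour-free mice was compared between the sexes: 6 females (fPBS) against 6 males (mPBS), out of 24 mice in the series. Every mouse was C57BL6, was 7 weeks old when it received a subcutaneous injection, and tissue was taken 3 weeks later. The fPBS and mPBS mice received vehicle (PBS). The remaining 12 mice, 6 of each sex, received LLC1, a Lewis lung carcinoma line, and serve here only as a second, separate set of females and males. Genes were kept if they lie on chromosomes 1 to 19 and reached 1 CPM (counts scaled to library size) in at least 6 of the 12 vehicle libraries, which left 13673 of the 39116 autosomal genes of the table. Of these, 12664 reached that level in all 12 libraries, 9 stayed below it in every mouse of one sex, and the other 1000 reached it in part of the mice. The label of muscle was checked against 12 genes of the muscle fibre, all of which passed the expression filter.

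The gastrocnemius is a mixed calf muscle made mostly of fast, glycolytic fibres with a smaller oxidative and slow part. Androgens act on muscle through the androgen receptor and oestrogens through oestrogen receptors, and growth hormone, which is released in a more pulsed pattern in male rodents, signals through JAK2 and STAT5. In mouse muscle the enzymes that make polyamines, the small positively charged molecules spermidine and spermine, are a known target of androgens. Fibre type is read from the myosin heavy chains: Myh7 marks slow fibres, and Myh2, Myh1 and Myh4 mark successively faster ones.

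Total counts per vehicle library were 37.2 ± 6.48 M (SD, n = 6) in females and 35.0 ± 6.16 M (SD, n = 6) in males, a difference smaller than the spread (exact permutation test, two-sided, p = 0.545). Females had 25.5 ± 1.54% of their counts in the top 10 genes and males 27.4 ± 1.31% (exact permutation test, two-sided, p = 0.0455). Without any 1 library that p ranged up to 0.0909 (exact permutation test, without female 2-2). Xist and 4 Y-linked genes matched the labelled sex in all 12 libraries. The first principal component held 32.88% of the variance and put all females at 7.36 to 18.5 and 5 males at -11.7 to -22, with male 1-3 between them at 0.644. Counts of called genes in a list that moved by over 1.5 times without this mouse are given both ways. All fPBS libraries were run on sequencing lane 6 and all mPBS libraries on lane 4, so lane and sex cannot be told apart in these 12 libraries. Each library is 1 mouse by its title; the labels say no more on how replicates were raised, and a p-value here reflects library-to-library spread.

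Sex differences were many and mostly small. In the edgeR quasi-likelihood test (Benjamini-Hochberg adjusted p under 0.05, adjusted over all 14150 genes fitted, X and Y included), 674 autosomal genes were higher in females, 4.93% of those tested, and 805 were higher in males, 5.89%. Together these 1479 called genes are 10.8% of the tested genes. Their median absolute difference was 0.38 on the log2 scale, and 54 genes were at least 2-fold higher in females and 62 at least 2-fold higher in males. At 4-fold or more the split was uneven, with 3 genes higher in females and 17 higher in males. The 17 count Amd1 and its near-identical copy Amd2 separately. They also include Slc15a5, which passed the expression filter only through the males. The values of the females and the males did not overlap for 618 of the called genes, and for 666 (4.87%) of all 13673 tested. The median log2 difference over all tested genes, female minus male, was 0.01.

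The calls depended on single libraries. Of the called genes, 281 higher in females and 426 higher in males were called in all 12 fits that left out 1 library, and most genes described here come from that set. The count was 867 without female 2-1, 897 without male 1-1, 970 without male 1-2, 943 without male 2-4 and 838 without male 2-5. Without male 1-3 it was 2160, and 634 of the genes higher in females and 772 of those higher in males were among them.

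**Figure D1:**
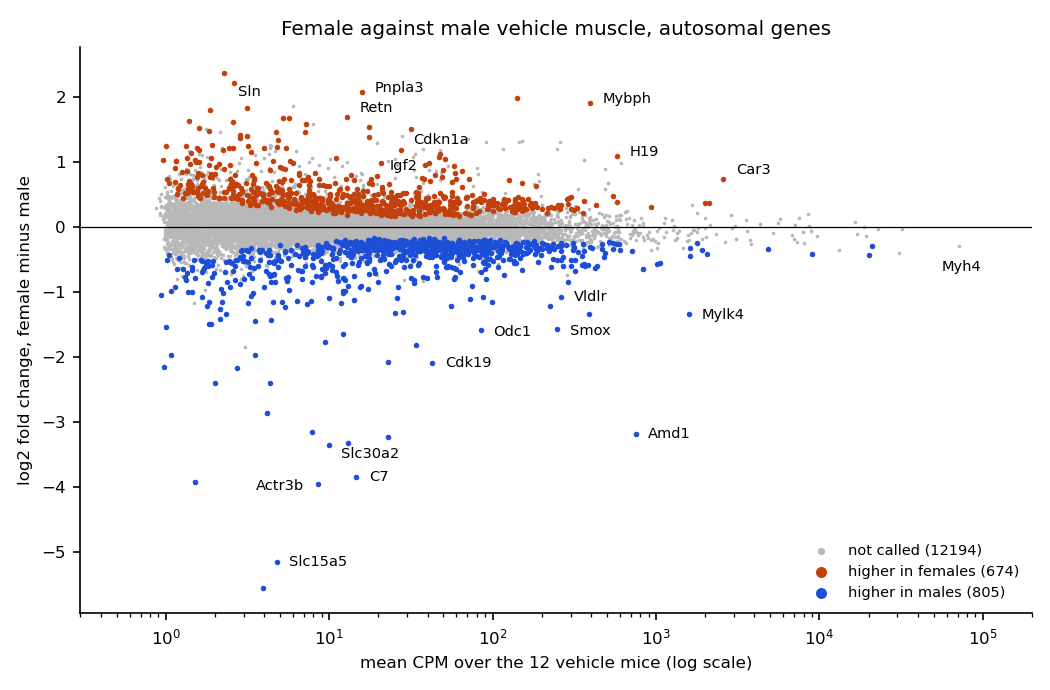
Each point is 1 of the 13673 autosomal genes, with its mean level over the 12 vehicle mice (CPM, log axis) on the horizontal axis and the log2 difference, female minus male, on the vertical axis, and called genes coloured. Most called genes lie within 1 log2 unit of 0, and the points farthest from 0 lie on the male side.

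In polyamine metabolism all of the called members were higher in males. Of 13 tested genes of that list 5 (38.5%, against 10.8% of all genes) were called. Of the 5, 4 were called in all 12 fits that left out 1 library. DESeq2 and limma-voom likewise called 5 of the 13, higher in males. Amd2, a near-identical copy of Amd1, is among them, and counting only Amd1 of the pair leaves 4 of 12. Without Amd2 the summed level of the list was 823.3 to 969.7 CPM in females and 2164.0 to 2831.2 CPM in males. The largest part of the male sum was Amd1. Over the 13 tested genes the median difference was -0.05, with 4 positive and 9 negative. Amd1, Odc1, Smox and the Amd1 copy Amd2 also stand in the list of androgen-responsive genes of muscle. There 5 of 14 (35.7%, against 10.8% of all genes) were called, each higher in males (4 of 13 without Amd2). The fifth was Mylk4.

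Amd1 (chromosome 10, 40287458 to 40302188, mm10) encodes S-adenosylmethionine decarboxylase, which supplies the aminopropyl group for spermidine and spermine. It was at 132.0, 146.9 and 169.3 CPM in the lowest, median and highest female and at 1127.8, 1301.3 and 1631.2 CPM in males. The groups were far apart, with the lowest male well above the highest female. The log2 difference was -3.17 ± 0.10 (SE, adjusted p = 1.08e-11), a 9.03-fold higher level in males. Its near-identical copies Amd2, Amd-ps3 and Amd-ps4 gave similar differences (-3.23, -3.32 and -3.15), but reads of such copies cannot be assigned with certainty, so they are not separate evidence.

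Odc1 (chromosome 12, 17544873 to 17551502) encodes ornithine decarboxylase, the enzyme that opens the pathway. Its level was 33.9, 40.0 and 58.1 CPM (lowest, median, highest) in females and 113.9, 121.1 and 155.0 CPM in males. No female reached the lowest male, and the log2 difference was -1.58 ± 0.12 (SE, adjusted p = 7.05e-07). Smox (chromosome 2, 131491496 to 131525922) encodes spermine oxidase, which turns spermine back into spermidine. It was at 78.3, 126.3 and 160.5 CPM in females and at 324.6, 362.3 and 428.5 CPM in males, again without overlap (-1.57 ± 0.15, SE, adjusted p = 1.33e-05). In these mice the decarboxylases of synthesis and the oxidase of breakdown were thus both higher in males.

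In the separate LLC1 mice Odc1 differed by -1.90 (adjusted p = 5.55e-06) and Amd1 by -2.01 (adjusted p = 0.00874), and Smox did not pass the test (-0.89, adjusted p = 0.144). Amd1 averaged 120.2 CPM in LLC1 females and 488.3 CPM in LLC1 males, with a wide spread among those males. The change of the sex difference between vehicle and LLC1 mice was not called for any of these genes.

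The 250 bases before the start of Amd1, Odc1 and C7, a gene described below, are shown because these genes carry the male side of the comparison, beside a stretch of the Mybph promoter from the female side. They come from RefSeq (GRCm38.p6), are written 5′ to 3′ on the gene's strand, and capitals mark a match to AGGTCA or its reverse complement TGACCT, the half-site bound by oestrogen and related nuclear receptors. The windows are chr10:40302189-40302438 (minus strand), chr12:17544623-17544872 (plus), chr15:5063774-5064023 (minus) and, for Mybph, chr1:134193336-134193381 (plus).
Amd1: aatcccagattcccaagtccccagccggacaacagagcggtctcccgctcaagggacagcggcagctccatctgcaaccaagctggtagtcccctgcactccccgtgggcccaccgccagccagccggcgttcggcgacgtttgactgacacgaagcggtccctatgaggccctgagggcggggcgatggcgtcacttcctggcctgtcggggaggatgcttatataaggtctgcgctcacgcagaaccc
Odc1: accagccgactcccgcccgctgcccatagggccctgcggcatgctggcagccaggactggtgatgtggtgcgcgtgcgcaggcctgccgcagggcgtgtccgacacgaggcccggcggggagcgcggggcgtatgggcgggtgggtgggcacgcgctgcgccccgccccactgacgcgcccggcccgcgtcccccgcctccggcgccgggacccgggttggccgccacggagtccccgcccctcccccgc
C7: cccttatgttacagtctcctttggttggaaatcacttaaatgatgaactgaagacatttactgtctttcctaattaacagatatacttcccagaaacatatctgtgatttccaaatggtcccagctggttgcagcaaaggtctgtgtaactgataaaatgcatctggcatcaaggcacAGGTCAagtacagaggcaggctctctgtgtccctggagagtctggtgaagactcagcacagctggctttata
Mybph: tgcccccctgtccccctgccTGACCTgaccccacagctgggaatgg
Both strands were searched for AGGTCA and for AGAACA (reverse complement TGTTCT), the half-site bound by androgen and glucocorticoid receptors, and for inverted repeats of each with 3 bases between the half-sites. Neither half-site occurs in the Amd1 and Odc1 windows. C7 has AGGTCA at bases 72 to 67 before its start, and Mybph has it at bases 92 to 87. RefSeq promoters were matched for 60 of the 82 called genes chosen by the naming rule. AGAACA was in 3 of their 51 promoters on the female side (5.88%) and in 2 of 31 on the male side (6.45%), against 16.1% of all 31396 autosomal promoters and 10.6% of those of the 13673 genes. AGGTCA was in 9.8% and 6.45%, against 14.1% of all and 11% of those of the 13673 genes. No inverted repeat occurred in the promoters of these named genes, and 0.00956% and 0.0223% of all promoters held one. Such matches describe letters in a window and say nothing of binding.

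Other genes with large differences on the male side span structure, transport and immunity. Actr3b (chromosome 5, 25759997 to 25850342), an actin-related protein of the ARP2/3 family, was at 0.759, 0.88 and 1.44 CPM in females and at 11.6, 15.8 and 21.4 CPM in males. C7 (chromosome 15, 4988762 to 5063773), a complement component of the membrane attack complex, was at 0.932, 1.78 and 2.97 CPM in females and at 17.4, 28.5 and 39.5 CPM in males. Slc30a2 (chromosome 4, 134343181 to 134354484), a zinc transporter, was at 1.52, 1.75 and 2.01 CPM in females and at 13.9, 18.4 and 21.9 CPM in males. For all of these the lowest male was several-fold above the highest female. The log2 differences were -3.95 ± 0.19, -3.84 ± 0.28 and -3.35 ± 0.13 (SE), with adjusted p of 2.81e-09, 2.87e-06 and 1.25e-10. In LLC1 mice the same genes differed by -3.47, -2.95 and -3.10, and all passed the test.

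Cacna2d4, an auxiliary calcium channel subunit, differed by -2.86 ± 0.22 (SE, adjusted p = 1.54e-06), with females at 0.666 to 1.45 CPM and males at 5.02 to 9.72 CPM. Neto2, an auxiliary subunit of kainate receptors, differed by -1.97 ± 0.18 (adjusted p = 5.37e-06), with females at 1.02 to 1.94 CPM and males at 4.27 to 8.0 CPM. Tfcp2l1, a transcription factor of the grainyhead-like family, differed by -2.08 ± 0.28 (adjusted p = 9.04e-04), with females at 5.44 to 14.7 CPM and males at 24.7 to 58.6 CPM. The ranges of the sexes did not meet in any of these genes. Chac1, which breaks down glutathione, was at 8.73 to 23.7 CPM in females and 27.8 to 118.1 CPM in males (-1.80 ± 0.39, adjusted p = 0.0151), while in LLC1 mice its difference was -0.19 (adjusted p = 0.757). Whether the Chac1 difference itself changed between the vehicle and LLC1 mice was not called.

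Several further genes were picked out after their values were seen. Slc15a5, a peptide transporter family member, was at 0.138 to 0.405 CPM in females and at 5.58, 8.52 and 16.9 CPM in males (-5.15 ± 0.33, adjusted p = 2.73e-07). It is 1 of the 9 genes below 1 CPM in every mouse of one sex. It passed the filter only through the males, so its lack of overlap was fixed in advance and its call is no separate support. Serpinb6a, a serine protease inhibitor, was at 118.2 to 159.1 CPM in females and 252.2 to 369.5 CPM in males (-1.21 ± 0.09, adjusted p = 9.83e-07). Vldlr, the very low density lipoprotein receptor, was at 153.8, 169.9 and 183.1 CPM in females and at 277.9, 341.3 and 446.3 CPM in males (-1.07 ± 0.10, adjusted p = 6.17e-06). Serpinb6a and Vldlr did not overlap between the sexes. In LLC1 mice Slc15a5, Serpinb6a and Vldlr differed by -4.88, -1.07 and -1.34, past the test. Mylk4, a myosin light chain kinase family member abundant in muscle, was at 488.0 to 1270.4 CPM in females and 1416.0 to 3571.3 CPM in males (-1.34 ± 0.27, adjusted p = 0.00953). In LLC1 mice Mylk4 differed by 0.22 (adjusted p = 0.698), and the test of the change between the settings gave an adjusted p of 0.225.

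**Figure D2:**
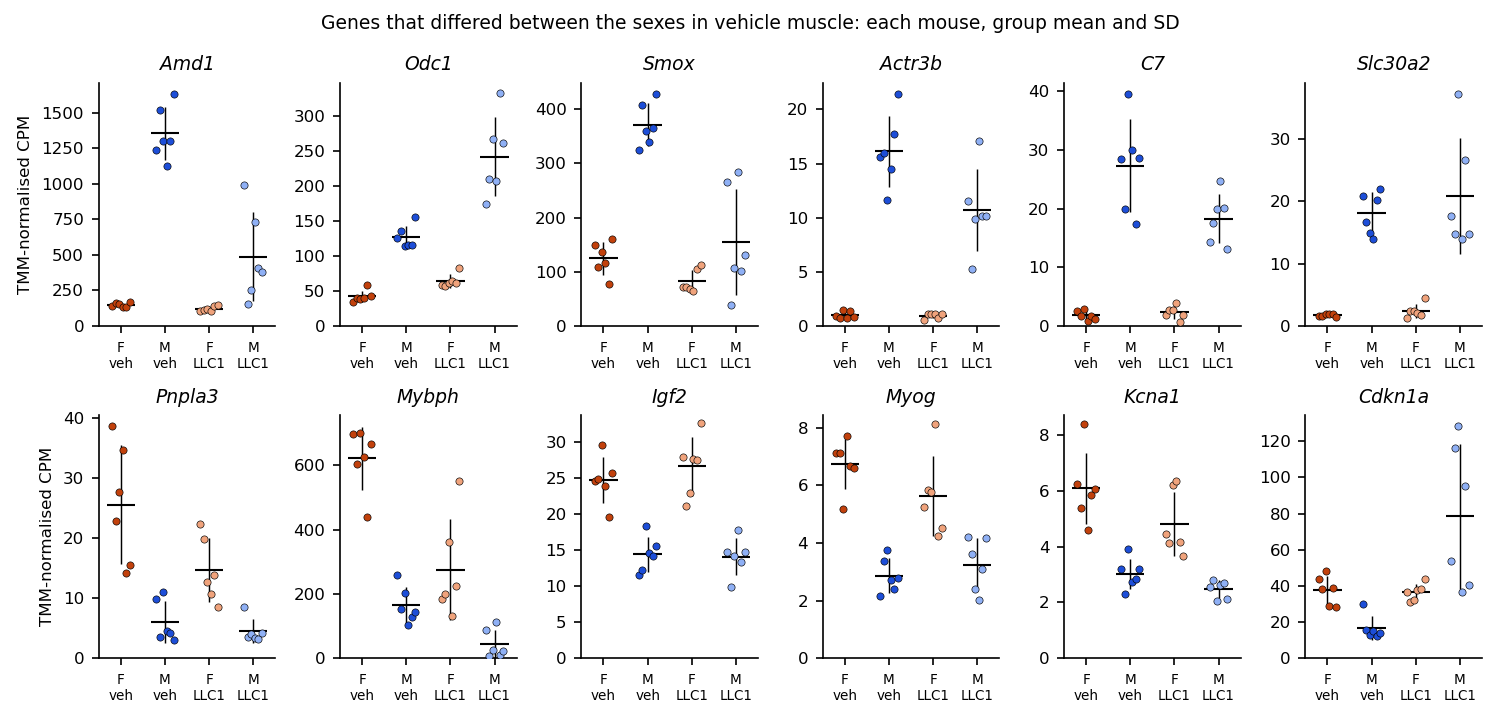
Each point is 1 mouse, with its level (CPM) on the vertical axis and the 4 groups of 6 mice on the horizontal axis, and lines give the mean and SD. Amd1, Odc1, Smox, Actr3b, C7 and Slc30a2 lie higher in vehicle males than in every vehicle female, while Pnpla3, Mybph, Igf2, Myog and Kcna1 lie higher in vehicle females, and Cdkn1a has 1 vehicle male at 29.9 CPM among the females.

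Sex hormone receptors themselves differed little. Of 7 tested autosomal receptor genes 1 (14.3%, against 10.8% of all genes), Esr1, was called. It encodes oestrogen receptor alpha and was at 32.9, 37.5 and 42.0 CPM in females and at 25, 29.9 and 35.6 CPM in males. The ranges overlapped, and the difference of 0.33 ± 0.09 (SE, adjusted p = 0.0299) lost its call without female 1-3 (adjusted p = 0.0589), female 1-4 (0.0608), male 1-1 (0.0527), male 1-4 (0.0655) or male 2-4 (0.0761). Esr2 and Pgr were below the expression filter, and the androgen receptor gene lies on the X chromosome and was not counted here. Among 10 tested enzymes and chaperones of steroid action 1 (10%, against 5.89% of all genes) was higher in males. Without male 1-3 edgeR called 2 in that direction. The 1 called with all libraries was Hsd11b1, which regenerates active glucocorticoid. It was at 6.39, 6.82 and 9.12 CPM in females and at 9.98, 10.8 and 14 CPM in males (-0.59 ± 0.12, SE, adjusted p = 0.00622), and in LLC1 mice it differed by -0.58, also called. Of 7 oestrogen-responsive genes 1 (14.3%, against 4.93% of all genes) was higher in females, and without male 1-3 1 other was called higher in males. The gene higher in females was Xbp1, a transcription factor of the unfolded protein response. Xbp1 was at 64.1, 68.4 and 76.0 CPM in females and 47.4 to 58.1 CPM in males (0.44 ± 0.06, adjusted p = 4.72e-04), without overlap. In LLC1 mice its difference was -0.04 (adjusted p = 0.875).

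In the growth hormone pathway 2 of 11 tested genes (18.2%, against 10.8% of all genes) were called, both higher in males. Jak2, the kinase attached to the growth hormone receptor, was at 43.1, 48.6 and 54.4 CPM in females and at 53.5, 76.8 and 104.0 CPM in males (-0.70 ± 0.14, SE, adjusted p = 0.00661). Cish, a STAT5 target that dampens the signal, was at 1.75, 2.43 and 3.1 CPM in females and at 1.93, 6.69 and 11.7 CPM in males (-1.42 ± 0.34, adjusted p = 0.021), and limma-voom did not call it (adjusted p = 0.0704). Both ranges overlapped, with the lowest male inside the female range. In LLC1 mice neither was called: Jak2 differed by -0.09 (adjusted p = 0.717) and Cish by 1.51, with the opposite sign (adjusted p = 0.0842). Socs2, another STAT5 target, was not called (0.13 ± 0.19, adjusted p = 0.709), and neither was Igf1, the growth factor downstream (-0.31 ± 0.22, adjusted p = 0.397). DESeq2 called 2 genes of this list in each direction and limma-voom 1 in each. Without male 1-3 edgeR called 2 higher in females and 2 higher in males.

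Of 25 genes of the IGF axis and muscle growth factors 3 were called, all higher in females. That is 12% of the list, close to the 10.8% called over all genes. Without male 1-3, 5 were called in that direction. Igf2, a fetal-type insulin-like growth factor, was at 19.5, 24.7 and 29.5 CPM in females and at 11.5, 14.4 and 18.3 CPM in males (0.78 ± 0.11, SE, adjusted p = 6.55e-04). Il15, a cytokine made by muscle, was at 6.79, 8.46 and 10.3 CPM in females and at 3.72, 4.74 and 5.72 CPM in males (0.83 ± 0.13, adjusted p = 0.00112). Neither overlapped between the sexes, and LLC1 mice gave 0.93 and 1.16, both called. Ostn, the secreted peptide musclin, was at 15.3, 26.6 and 40.4 CPM in females and at 12.3, 13.9 and 15.3 CPM in males (0.99 ± 0.20, adjusted p = 0.01). In LLC1 mice Ostn differed by 0.71 (adjusted p = 0.182). Mstn, the growth inhibitor myostatin, was not called (-0.13 ± 0.15, adjusted p = 0.594).

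On the female side the largest differences included a lipid droplet protein, a thick-filament protein and secreted factors. Pnpla3, a lipid droplet hydrolase, was at 14.2, 25.3 and 38.6 CPM in females and at 3.04, 4.35 and 11 CPM in males (2.08 ± 0.38, SE, adjusted p = 0.00674). Mybph (chromosome 1, 134193448 to 134201232), myosin-binding protein H of the thick filament, was at 439.4, 646.4 and 699.0 CPM in females and at 104.1, 149.5 and 258.3 CPM in males (1.91 ± 0.20, adjusted p = 6.42e-05). Each male was below each female for these genes, and LLC1 mice gave 1.72 and 2.63, both called. Adora1 overlaps Mybph in the annotation and gave 2.00, but unstranded reads of the pair cannot be told apart.

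Stc2, a secreted glycoprotein, was at 6.62 to 19.4 CPM in females and 2.45 to 5.68 CPM in males (1.59 ± 0.29, SE, adjusted p = 0.00548). Nr4a3, an orphan nuclear receptor induced by exercise, was at 4.78 to 15.3 CPM in females and 1.42 to 4.56 CPM in males (1.67 ± 0.33, adjusted p = 0.00877). Rian, a long noncoding RNA of an imprinted cluster, was at 30.4 to 68.7 CPM in females and 13.0 to 20.1 CPM in males (1.51 ± 0.21, adjusted p = 9.58e-04). The sexes did not overlap for any of them. Nr4a3 was the only called gene of 19 tested immediate early genes (5.26%, against 10.8% of all genes).

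Calls in metabolic pathways went in both directions. In lipid and cholesterol synthesis 3 of 25 tested genes were higher in females and 1 in males (2 without male 1-3), and in glycolysis and glycogen metabolism 1 of 26 was higher in females and 3 in males. Over all genes 10.8% were called. Fbp2, the muscle fructose bisphosphatase that acts against glycolysis, was at 63.0, 73.4 and 89.0 CPM in females and at 35.5, 38.2 and 44.6 CPM in males (0.93 ± 0.09, SE, adjusted p = 1.24e-05). Hk2, the hexokinase that commits glucose, was at 270.6, 313.8 and 364.4 CPM in females and at 355.3, 403.3 and 469.0 CPM in males (-0.36 ± 0.09, adjusted p = 0.0206). Fbp2 was thus separated between the sexes, while the highest female for Hk2 was above the lowest male. In LLC1 mice neither was called: Fbp2 differed by 0.42 (adjusted p = 0.105) and Hk2 by 0.14, with the opposite sign (adjusted p = 0.357). The other 2 glycolysis calls, both higher in males, were lost without some libraries, and without male 1-3 the list held 8 genes higher in males.

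Among lipid genes, G0s2, an inhibitor of the triglyceride lipase of fat stores, was at 18.5, 20.7 and 49.4 CPM in females and at 6.2, 9.7 and 13.4 CPM in males (1.38 ± 0.27, SE, adjusted p = 0.00845). Dgat1, which completes triglycerides, was at 11.9, 15.6 and 18.7 CPM in females and at 9.3, 9.94 and 12.1 CPM in males (0.60 ± 0.11, adjusted p = 0.00273). Mlxipl, the carbohydrate-response factor ChREBP, differed by 0.40 ± 0.09 (adjusted p = 0.01) and in LLC1 mice by 0.64, also called. G0s2 was apart between the sexes and Dgat1 nearly so. In LLC1 mice Dgat1 differed by 0.19 (adjusted p = 0.367). Acacb, whose product malonyl-CoA restrains fatty acid entry into mitochondria, was at 334.8 to 404.0 CPM in females and 413.5 to 492.2 CPM in males (-0.31 ± 0.07, adjusted p = 0.0115). In LLC1 mice Acacb differed by -0.44 (adjusted p = 0.0724). Fasn and Scd1 had wide spreads and were not called (1.32 ± 0.66, adjusted p = 0.226, and 1.04 ± 0.45, adjusted p = 0.163).

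Genes of fat burning and respiration were not called. Of 35 tested genes of fatty acid uptake and oxidation edgeR called 0, with 4 at unadjusted p under 0.05, DESeq2 called 1 and limma-voom 0. Of 25 genes of the tricarboxylic acid cycle edgeR called 0, with 6 at unadjusted p under 0.05, DESeq2 called 2 and limma-voom 0. Without male 1-3 edgeR called 2 of the cycle genes, higher in males. Of 68 nuclear genes of oxidative phosphorylation edgeR called 0, with 12 at unadjusted p under 0.05, DESeq2 called 1 and limma-voom 0. In that list 60 of the 68 had a positive difference, with a median of 0.13 against 0.01 over all genes and 0.01 for the list in LLC1 mice. Ppargc1a, the coactivator of mitochondrial biogenesis, was at 33.9 to 49.5 CPM in females and 38.2 to 47.5 CPM in males (-0.02 ± 0.09, SE, adjusted p = 0.902). The 37 mitochondrially encoded genes are listed with 0 counts in every library, so that side of respiration was not analysed here.

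Fibre-type genes leaned toward slow fibres in females, below the threshold of the test. Of 15 slow-fibre sarcomere genes 14 had a positive difference, with a median of 0.83 (0.87 in LLC1 mice), but edgeR called 0 of them, 7 had an unadjusted p under 0.05, DESeq2 called 3 and limma-voom 0. Without male 1-3 edgeR called 2 of them and the median was 1.02. The summed level of the list was 2599.4 to 7775.0 CPM in females and 1652.7 to 4927.0 CPM in males, with overlap. Tnni1, slow troponin I, was at 38.1, 89.0 and 216.4 CPM in females and at 8.71, 35.6 and 75.3 CPM in males (1.35 ± 0.53, SE, adjusted p = 0.129). Casq2, the slow-fibre calsequestrin, differed by 0.88 ± 0.29 (adjusted p = 0.0694), and without male 1-3 it was called (adjusted p = 0.0146). The spread within each sex was wide: the highest female had several times the Tnni1 level of the lowest female, and the same held in males.

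Of 16 fast-fibre genes edgeR called 0, with 4 at unadjusted p under 0.05, DESeq2 called 2 and limma-voom 0, and the median was -0.12. Without male 1-3 edgeR called 4 of them higher in males. Myh7 made up 1.12 ± 0.728% (SD, n = 6) of the counts of the 4 adult myosin heavy chains in females and 0.482 ± 0.373% in males (exact permutation test, two-sided, p = 0.0649, adjusted over the 4 isoforms 0.26). Myh2 held 5.87 ± 1.23% and 4.81 ± 1.3% (exact permutation p = 0.169, adjusted 0.338). Myh1 held 8.64 ± 1.2% and 8.31 ± 1.61% (exact permutation p = 0.686). Myh4, the fastest, held 84.4 ± 2.49% and 86.4 ± 3.23% (exact permutation p = 0.26, adjusted 0.346). No isoform share passed, and single mice ranged from 0.0793% to 2.47% for Myh7. Actn3, the fast-fibre actinin, was not called either (-0.14 ± 0.09, SE, adjusted p = 0.341).

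Markers of other cell types were followed in the same libraries. Adipocyte markers were higher in females for 2 of 12 genes (16.7%, against 10.8% of all genes) by the test, Retn and Car3. All 12 had a positive difference (median 1.04, 1.07 in LLC1 mice). Retn, the adipokine resistin, was at 10.2, 17.4 and 36.1 CPM in females and at 2.44, 5.55 and 10.8 CPM in males (1.70 ± 0.39, SE, adjusted p = 0.0205). Car3, carbonic anhydrase III, which muscle fibres also express strongly, was at 2766.7, 3206.1 and 3770.2 CPM in females and at 1639.7, 1781.5 and 2653.5 CPM in males (0.75 ± 0.12, adjusted p = 0.00109). Retn overlapped only at the edges of the ranges and Car3 did not overlap. Adipoq, adiponectin, was at 15.4 to 75.8 CPM in females and 8.12 to 32.6 CPM in males (1.4 ± 0.46, adjusted p = 0.0732), with male 1-3 the highest male. Without male 1-3 Adipoq was called (adjusted p = 0.0226), and 8 of the 12 markers were. The summed level of the list was 3825.5 to 5046.4 CPM in females and 2627.2 to 3852.3 CPM in males, and most of it was Car3. Without Car3 the sums overlapped, at 1058.9 to 1867.3 CPM in females and 903.9 to 1198.8 CPM in males. Male 1-3 had the highest sums among males for the slow-fibre (4927.0 CPM), adipocyte (3852.3 CPM) and extracellular matrix (8655.8 CPM) lists. Of the lipid genes above, G0s2, Dgat1 and Mlxipl were also higher in females, while Acacb was higher in males. The part of the adipocyte markers in those differences was not tested. In bulk muscle, fewer cells of a type and less RNA per cell cannot be told apart.

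Schwann cell markers were also higher in females: 3 of 7 (42.9%, against 10.8% of all genes) were called. Of the 3, 1 was called in all 12 fits that left out 1 library. DESeq2 called 5 of the 7 and limma-voom 2, all higher in females. All 7 had a positive difference (median 0.96), and all 7 were called in LLC1 mice. Sox10, a transcription factor of the glial lineage, was at 1.47, 2.63 and 3.06 CPM in females and at 0.706, 1.15 and 1.98 CPM in males (0.96 ± 0.24, SE, adjusted p = 0.0209), with overlapping ranges. Without male 1-3 edgeR called 2 of the 7. The summed Schwann level was 134.6 to 384.7 CPM in females and 84.5 to 150.8 CPM in males. By the edgeR test no gene was called among 10 markers of fibro-adipogenic progenitors, 11 of endothelium, 10 of macrophages, 8 of tendon and 4 of red cells, 1 of which, among the progenitor markers, had an unadjusted p under 0.05, and DESeq2 and limma-voom called 0. Among 7 satellite cell markers 2 (28.6%, against 4.93% of all genes) were higher in females (1 without male 1-3). Neither was called in all 12 fits that left out 1 library, and limma-voom called 1. Among 10 markers of smooth muscle cells and pericytes 1 (10%, against 5.89% of all genes) was higher in males. Without male 1-3 edgeR called 3 higher in females and 2 higher in males. Ighm, the heavy chain of IgM, was the 1 tested B cell marker and was higher in males, at 26.6, 39.4 and 56.8 CPM against 12.5, 15.9 and 21.1 CPM in females (-1.31 ± 0.18, adjusted p = 6.65e-04). All 11 T and NK cell markers were below the expression filter.

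**Figure D3:**
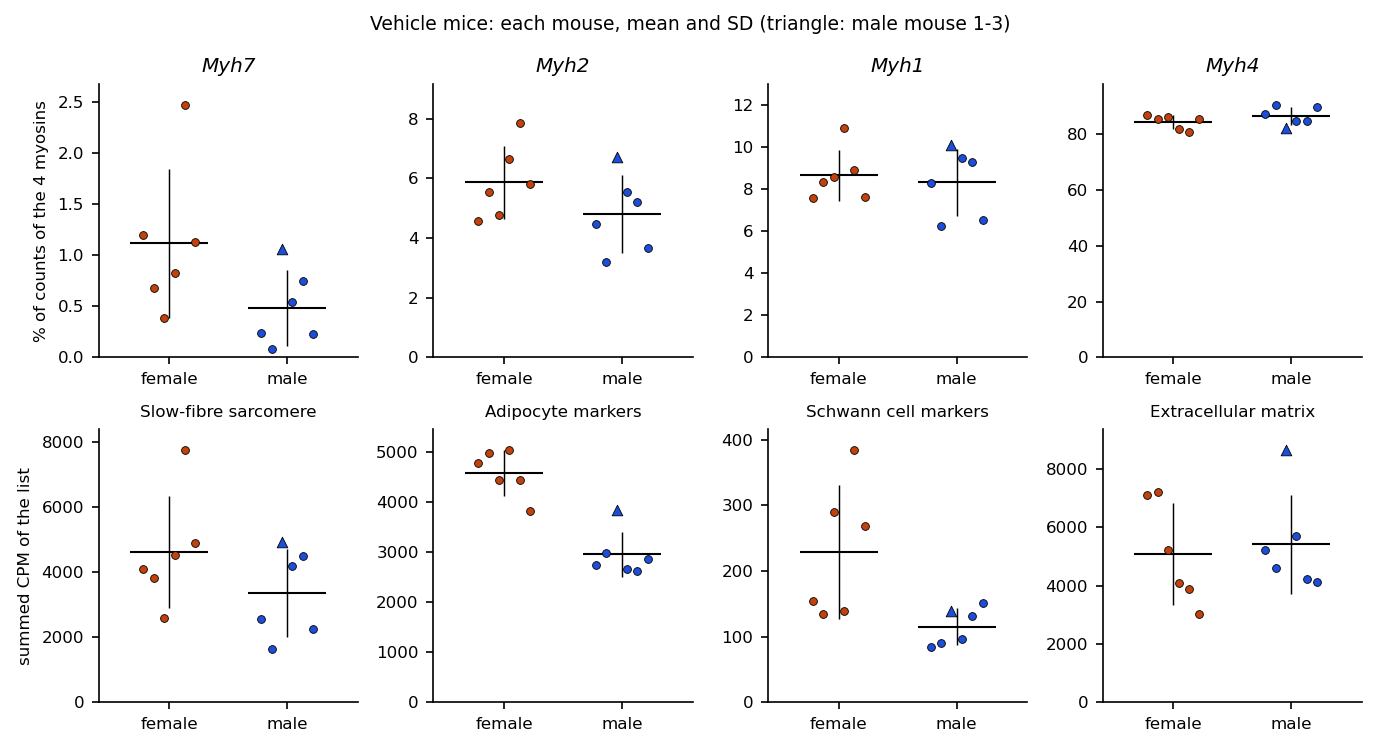
Each point is 1 vehicle mouse: the upper panels give the share of Myh7, Myh2, Myh1 and Myh4 in their summed counts (%), and the lower panels the summed CPM of the slow-fibre, adipocyte, Schwann cell and extracellular matrix lists, with male 1-3 as a triangle. Myh7 ranges from 0.386 to 2.47% in females and from 0.0793 to 1.06% in males, and the adipocyte sums, which are mostly Car3, meet only near 3852.3 CPM.

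Nerve contact and excitability genes showed differences in both directions. Of 17 tested genes of the neuromuscular junction and denervation list 4 (23.5%) were higher in females and 2 (11.8%) in males. Over all genes these shares were 4.93% and 5.89%. Musk, the receptor kinase that clusters acetylcholine receptors, was at 11.4, 13.9 and 21.3 CPM in females and at 31.1, 34.7 and 46.7 CPM in males (-1.31 ± 0.14, SE, adjusted p = 7.69e-05), and LLC1 mice gave -1.53, also called. Chrna1, the acetylcholine receptor alpha subunit, was at 13.5, 17.8 and 20.6 CPM in females and at 10.6, 12.0 and 13.9 CPM in males (0.51 ± 0.10, adjusted p = 0.00438). Ncam1, an adhesion molecule that spreads along denervated fibres, was at 7.97, 9.29 and 11.5 CPM in females and at 6.23, 6.9 and 7.61 CPM in males (0.45 ± 0.09, adjusted p = 0.0084). The receptor kinase and the receptor subunit therefore differed in opposite directions, Musk without overlap and Chrna1 with slight overlap.

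Myog, the myogenic factor that drives differentiation and activates acetylcholine receptor genes, was at 5.17, 6.89 and 7.72 CPM in females and at 2.15, 2.74 and 3.75 CPM in males (1.24 ± 0.14, SE, adjusted p = 4.69e-05). Tead1, a partner of YAP at muscle promoters, was at 177.0 to 215.7 CPM in females and 250.1 to 318.1 CPM in males (-0.49 ± 0.08, adjusted p = 0.00113). Both were without overlap. Among 17 myogenic genes 3 (17.6%, against 4.93% of all genes) were higher in females and 1 (5.88%, against 5.89%) in males. Without male 1-3 these were 3 and 4. Of 20 channel genes edgeR called 4 (20%, against 10.8% of all genes), all higher in females. Of these, Kcna1 was called in all 12 fits that left out 1 library. Without male 1-3 edgeR called 3 further channel genes higher in males, as many as DESeq2 called in that direction. Kcna1, the voltage-gated potassium channel Kv1.1, was at 4.59, 5.95 and 8.38 CPM in females and at 2.3, 3.01 and 3.9 CPM in males (1.01 ± 0.15, adjusted p = 6.27e-04), with 0.97 in LLC1 mice, also called. In calcium handling 2 of 20 (10%, against 4.93% of all genes) were higher in females and 2 (10%, against 5.89%) in males. Without male 1-3 these were 2 and 5. Ryr3, the minor ryanodine receptor, was at 0.932 to 1.49 CPM in females and 2.3 to 4.19 CPM in males (-1.26 ± 0.17, adjusted p = 2.8e-04). In LLC1 mice Ryr3 differed by -0.56 (adjusted p = 0.144).

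Atrophy genes were split, with 4 of 28 (14.3%, against 4.93% of all genes) higher in females and 4 (14.3%, against 5.89%) in males. Cdkn1a, the cell cycle inhibitor p21, was at 28.3, 38.6 and 48.1 CPM in females and at 12.6, 14.5 and 29.9 CPM in males (1.18 ± 0.22, SE, adjusted p = 0.00535). Sesn1, a stress-induced brake on mTORC1, was at 36.2, 46.8 and 57.0 CPM in females and at 23.4, 27.1 and 31.8 CPM in males (0.75 ± 0.10, adjusted p = 3.1e-04). Gadd45a, a growth arrest gene, was at 12.5, 17.5 and 21.8 CPM in females and at 9.6, 10.4 and 12.2 CPM in males (0.73 ± 0.11, adjusted p = 0.00113). For Cdkn1a only male 1-1, at 29.9 CPM, reached the female range, and the other two did not overlap. In LLC1 mice Sesn1 differed by -0.81 (adjusted p = 0.193) and Gadd45a by -0.28 (adjusted p = 0.639).

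On the male side of that list stood Trim54, a sarcomere-bound ligase of the MuRF family, at 202.8 to 248.1 CPM in females and 249.5 to 351.5 CPM in males (-0.46 ± 0.08, SE, adjusted p = 0.00332). Fbxo32, the ligase atrogin-1, was at 138.5, 267.9 and 312.7 CPM in females and at 292.3, 391.1 and 516.9 CPM in males (-0.68 ± 0.19, adjusted p = 0.0379). The Fbxo32 call was lost without female 1-1 (0.0543), female 2-1 (0.0828), male 1-1 (0.0788), male 1-2 (0.0759) or male 2-5 (0.0877). Trim63, the ligase MuRF1, was not called (-0.10 ± 0.13, adjusted p = 0.67). Of 19 glucocorticoid-responsive genes Fbxo32 was the 1 called (5.26%, against 10.8% of all genes).

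Of 19 clock genes 6 (31.6%, against 10.8% of all genes) were called, all higher in males. The median over the list was -0.21, and 0.02 in LLC1 mice. Hlf, a clock-driven PAR bZIP factor, was at 8.03, 10.2 and 14.3 CPM in females and at 16, 18.4 and 27.6 CPM in males (-0.92 ± 0.15, SE, adjusted p = 0.00186). Bhlhe41, a repressor of the clock loop, was at 20.5 to 41.9 CPM in females and 42.4 to 56.1 CPM in males (-0.78 ± 0.15, adjusted p = 0.00572). Cry2, a repressor in the core loop, was at 29.1 to 40.5 CPM in females and 46.6 to 68.5 CPM in males (-0.60 ± 0.10, adjusted p = 0.00245). These groups did not overlap, while the other 3 calls were lost without some libraries. Arntl, the activator of the loop, had the opposite sign (0.80 ± 0.24, adjusted p = 0.0527) and was called without male 1-1 (adjusted p = 0.0328). The labels used here give no hour of collection, and its part in these values was not tested.

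Of 20 heat shock and chaperone genes 3 (15%, against 4.93% of all genes) were higher in females and 1 (5%, against 5.89%) in males. DESeq2 called 4 and 2 of them and limma-voom 3 and 0. Of 27 interferon genes 2 (7.41%, against 4.93% of all genes) were called, both higher in females. Neither was called in all 12 fits that left out 1 library, and 6 were called in that direction without male 1-3. Of 32 extracellular matrix genes edgeR called 0, with 3 at unadjusted p under 0.05, DESeq2 and limma-voom called 0, and edgeR called 2, higher in females, without male 1-3.

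**Figure D4:**
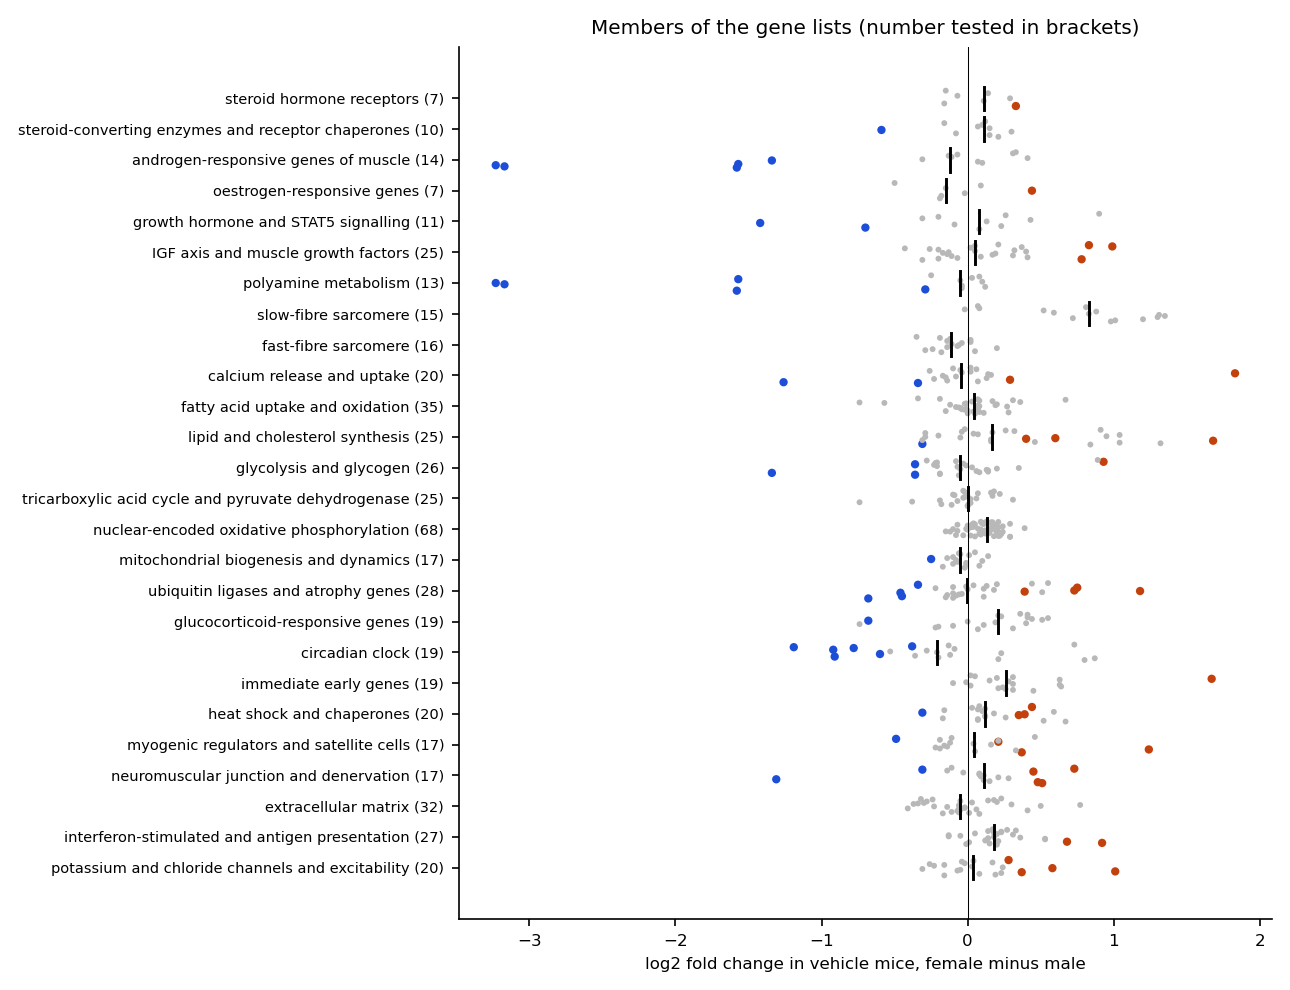
Each row is 1 of the 26 gene groups, each point 1 tested member with its log2 difference (female minus male, vehicle mice), called members coloured, and a bar at the median. The medians of the slow-fibre list (0.83) and the clock list (-0.21) lie on opposite sides of 0, and the polyamine list has its called members on the male side.

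The LLC1 mice gave a comparison of the sexes with no library in common with the vehicle mice. There 419 of the same 13673 genes were higher in females (3.06%) and 436 in males (3.19%). Of the genes higher in vehicle females 147 were called in the same direction in LLC1 mice, which is 21.8% of the vehicle calls and 35.1% of the LLC1 calls. Of those higher in vehicle males 199 were, 24.7% and 45.6%. The sign was kept in 581 of 674 genes and 698 of 805. The LLC1 counts rested on single libraries as well, from 213 without male 2-4 to 1812 without male 2-2.

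Genes called in both sets of mice included Actr3b, C7, Slc30a2 and Odc1 on the male side and Mybph, Pnpla3, Igf2 and Myog on the female side. Ak4, a mitochondrial adenylate kinase, was at 5.0 to 8.93 CPM in vehicle females and 1.04 to 4.99 CPM in vehicle males (1.47 ± 0.32, SE, adjusted p = 0.0143), and differed by 1.67 in LLC1 mice (adjusted p = 1.07e-04). The sexes were adjacent but did not overlap in the vehicle mice. Cdk19, a Mediator kinase whose gene lies next to Amd1, was at 15 to 17.0 CPM in vehicle females and 56.0 to 92.4 CPM in vehicle males (-2.09 ± 0.10, adjusted p = 1.47e-09), and differed by -1.26 in LLC1 mice (adjusted p = 0.00436).

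Only Cdkn1a and Per2 were called in opposite directions in the 2 sets. Cdkn1a had a difference of -1.09 in LLC1 mice (adjusted p = 0.0406), with group means of 36.5 CPM in females and 78.6 CPM in males. Per2, a core clock repressor, was at 7.06 to 15.8 CPM in vehicle females and 12.1 to 31.3 CPM in vehicle males (-0.91 ± 0.24, SE, adjusted p = 0.0325), and differed by 0.64 in LLC1 mice (adjusted p = 0.044). The vehicle call of Per2 was lost without female 1-1 (0.0545), 1-3 (0.0588), 1-4 (0.0577) or 2-2 (0.0707) and without male 2-4 (0.0713) or 2-5 (0.0677). The edgeR test of the change of the sex difference itself, over all 24 libraries, called 0 genes, with 1915 (14%) at unadjusted p under 0.05. Its smallest adjusted p was 0.053, for Cdkn1a, and that of Per2 was 0.132. LLC1 libraries were run on lanes 5 and 3, so here too lane and group cannot be told apart.

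**Figure D5:**
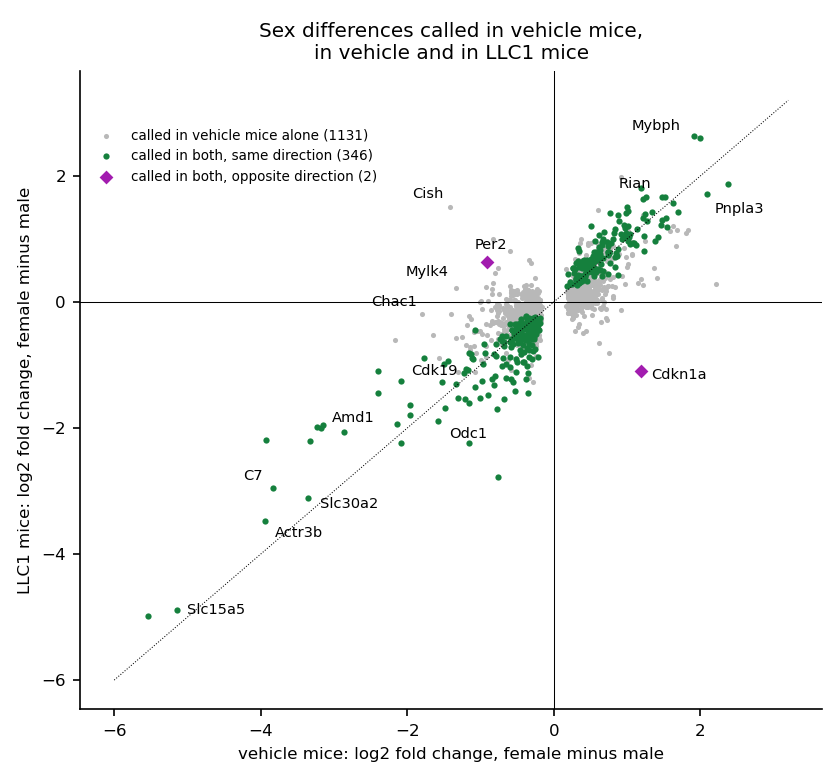
Each point is 1 of the 1479 genes called in vehicle mice, with its log2 difference (female minus male) in vehicle mice on the horizontal axis and in LLC1 mice on the vertical axis. The 346 genes called in the same direction in both and the 2 called in opposite directions are coloured, and the other 1131 are grey.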

How the data were processed

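Gastrocnemius poly(A) RNA of 24 mice was sequenced from unstranded TruSeq libraries with 12 cycles of PCR, per the labels' protocols. The authors deposited raw gene counts, made with CASAVA, STAR and featureCounts on mm10, per the submitters' processing notes. For these tools, versions, options and annotation release: not given in the sources used here. Reads carry no molecular identifiers.

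Genes with at least 1 CPM in 6 of the 12 vehicle libraries were fitted (14150, of which 13673 are autosomal) in R 4.3.3 by edgeR 4.0.16 (TMM scaling, robust quasi-likelihood F-test). The 12 LLC1 libraries were fitted separately on the same genes, and the change of the sex difference in a fit of all 24. Adjusted p-values are Benjamini-Hochberg with a threshold of 0.05. Differences are log2, female minus male, with SE computed as the absolute difference divided by the square root of F. Printed CPM use TMM factors over all 24 libraries. A simulated data set of the same size was used to test the fit.

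DESeq2 1.42.0, limma-voom (limma 3.58.1), RLE scaling, other filters, blocks and leaving out libraries were alternatives. No within-group pair of libraries agreed within sampling noise (chi-square per degree of freedom 16.63 to 87.81), so none looked like a repeat run of another. This check cannot tell separate preparations of the same mouse from separate mice. Each library was counted as 1 sample by its title. A gene was treated as sharing reads if at least 10% of its exon bases overlapped exons of a gene with at least 0.5 times its counts. This held for 1614 of the 13673. Promoter sequences are RefSeq's.

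Named genes were the 12 with the largest difference in each direction that were called in every fit leaving out 1 library, did not share reads and had a mean of at least 1 CPM in the lower group. To these were added up to 4 per list with the smallest p, a fixed set of hormone and fibre genes, and the 10 in each direction called in both vehicle and LLC1 mice with the largest smaller difference. Genes outside this rule are named as chosen after their values were seen: these are Adora1, Slc15a5, Serpinb6a, Vldlr, Mylk4, Fasn, Scd1, Tnni1, Arntl, Per2 and the imprinted genes. The genes and lists were chosen with earlier results of these data known.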

Additional observations from a re-analysis of the deposited data

Results flagged for a closer look

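In groups of 6 mice a value was singled out where its gap to the nearest mouse exceeded Dixon's 95% critical value (0.625 of the range). Of 340 groups examined 24 had such a value. Chance flags about 1 in 20 groups, which would be 17 of them, and none of these values was left out.

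Male 1-3 stood apart most often. It was the highest male for Adipoq (32.6 CPM) and Cfd (202.8 CPM), which adipocytes secrete, for Car3 (2653.5 CPM), for the endothelial genes Cdh5 (102.2 CPM) and Tek (40.2 CPM), for Lama2 (133.3 CPM), a laminin of the fibre's basement membrane, for Stat5a (18.2 CPM) and for Isg15 (1.33 CPM). For Sln, the calcium pump inhibitor sarcolipin, it stood apart at 3.04 CPM. The fast-fibre myosin Myh4 (57129.3 CPM) and the light chain kinase Mylk2 (737.1 CPM) were lowest in this mouse among males.

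Other males stood apart for Cdkn1a (29.9 CPM, male 1-1), Flt1 (49.2 CPM, male 1-2), Myl1 (10268.1 CPM, male 1-2) and Musk (46.7 CPM, male 2-5). Among females, values stood apart for Mybph (439.4 CPM, female 2-2), G0s2 (49.4 CPM, female 2-1), Amd-ps4 (1.16 CPM, female 2-1), Socs2 (13.9 CPM, female 1-3), Myl1 (6372.2 CPM, female 1-1) and Elovl6 (22.4 CPM, female 1-1). Female 1-4 stood apart for Pik3r1 (119.6 CPM), Cdh15 (26.4 CPM) and Musk (21.3 CPM).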

How the results depend on the processing

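Against 1479 called genes in vehicle mice, a replicate block on the full title number (2 residual degrees of freedom) gave 254, a block on the first title number 1692 and a block on the adapter index 923. The deviations of same-numbered females and males correlated at 0.0671, 0.415 and 0.0157, and those of other female and male pairs at -0.394 to 0.39. So few same-numbered pairs cannot settle whether the full numbers pair the mice. Mice of first title number 1 alone gave 313 and those of number 2 alone 2796, a split chosen after seeing the data. DESeq2 called 2018, limma-voom 1418, RLE scaling 1478, no filter 1256 and all 24 libraries together 1013. Leaving out 1 library gave 838 to 2160 calls. For LLC1 mice the main count was 855, with 1984 by DESeq2, 2659 in the fit of all 24 libraries, 541 with the full replicate block, and 213 to 1812 without 1 library. Genes called in both sets numbered 346, and 680 by DESeq2. The difference in the share of the 10 most abundant genes, -1.95 percentage points, ranged from -2.45 to -1.54 without 1 library, and lost its call without 10 of the 12. The cause was not tested.

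Of 82 called genes named by the rule, 55 were called without any 1 library and 20 under every alternative. None of these 82 reversed its direction under the alternatives run. Lane equals group, and 6 mice a sex set the precision.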

Other observations

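Imprinted genes, looked at after their values were seen and so without a test of the list, included several called on the female side. Of 32 genes listed, 23 were tested, and all 9 called in vehicle mice (39.1%, against 4.93% of all genes) were higher in females, while 8 of the 23 had a negative difference. In LLC1 mice 6 of the 9 were called in the same direction, and 1 listed gene, the amino acid transporter gene Slc38a4, was called higher in males (-0.76, adjusted p = 0.005). Neighbours among the 9 are not separate evidence: Meg3, Rian and Mirg on chromosome 12, and Igf2 and H19 on chromosome 7. These neighbours and Grb10 are the 6 called again in LLC1 mice. The median difference of the 23 was 0.30 in vehicle and 0.21 in LLC1 mice, against 0.01 over all genes. Besides Igf2 and Rian, Meg3, the maternally expressed noncoding RNA next to Rian on chromosome 12, differed by 0.96 ± 0.14 (SE, adjusted p = 9.88e-04) and in LLC1 mice by 1.22. Grb10, an adaptor that restrains insulin and IGF signalling, differed by 0.75 ± 0.15 (adjusted p = 0.00718) and in LLC1 mice by 0.78. Peg3, a paternally expressed zinc finger gene, differed by 0.81 ± 0.11 (adjusted p = 3.51e-04), but by 0.06 in LLC1 mice (adjusted p = 0.895).

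Some called genes lie close together in the genome. Amd1 and Cdk19 are neighbours on chromosome 10, and both were higher in males. Mybph and Myog lie near each other on chromosome 1, both higher in females. G0s2 and Hsd11b1 also lie near each other on chromosome 1, but G0s2 was higher in females and Hsd11b1 higher in males. Whether neighbours share a difference more often than other genes was not tested.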
